A study of Capra hircus with 9 samples.

Results

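The miR-183 cluster, miR-203 and miR-205 were followed in small RNA libraries made from 9 submandibular glands, each of a healthy female goat of the Lubo breed. Every entry named miR-183, miR-96, miR-182, miR-203 or miR-205, with any letter, arm or ending, was taken, which gave 13 of the 2189 mature miRNA entries counted: 9 of the miR-183 cluster, 2 of miR-203 and 2 of miR-205. The goats formed groups of 3 at 1 month, 12 months and 24 months of age, were untreated, and were kept under the same light and feeding. Each library came from a separate animal, and the labels number the libraries 1 to 3 for the 1-month goats, 3 to 5 for the 12-month goats, and 2, 3 and 5 for the 24-month goats. Age is the only difference between the groups that the labels give, and the whole gland was taken, so each value is a mixture of secretory, ductal, vascular, connective and immune cells.

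The submandibular gland is a salivary gland in which acini make saliva and a system of ducts carries and modifies it. A miRNA is cut from a hairpin precursor, and either arm of the hairpin, 5p or 3p, can be kept as the mature strand. The strand finds its messenger RNA targets mainly through its seed, the stretch from the second to the eighth base. miR-183, miR-96 and miR-182 are made from a shared precursor transcript and are best known from sensory epithelia, such as the hair cells of the inner ear, and they are also found in other epithelia. miR-205 is known from stratified and glandular epithelia, with high levels in basal cells, and miR-203 from the differentiating layers of the epidermis in mice, where it restrains the stem cell factor p63. In the RefSeq gene table for goat assembly ARS1.2, MIR183, MIR96 and MIR182 follow one another with no other listed gene between them, and their flanking genes are UBE2H and NRF1. miR-203 and miR-205 were not matched to that table.

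Names with the prefix chi- are goat miRNAs. The other names carry no species, and their ending -x marks a 5p strand and -y a 3p strand. The sequences below are those deposited with the counts, written 5′ to 3′ with the seed in capitals. The first set is shown because it holds the 5p strands of the cluster, which make up almost all of its counts, and because the seeds of its 3 goat-named members differ by few bases.
chi-miR-183: tATGGCACtggtagaattcact
chi-miR-96: tTTGGCACtagcacatttttg
chi-miR-182: tTTGGCAAtggtagaactcac
miR-182-x: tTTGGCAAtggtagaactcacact
miR-96-x: tTTGGCACtagcacatttttgca
miR-183-x: aTGGCACTggtagaattcactga
Counted from 1 at the 5′ end, the seed of chi-miR-96 differs from that of chi-miR-183 by A2T and from that of chi-miR-182 by A8C. chi-miR-182 differs from chi-miR-183 by A2T and C8A. miR-182-x and miR-96-x begin with the whole of chi-miR-182 and of chi-miR-96 and run on at the 3′ end, so they keep the seed and are longer forms of the same strand. miR-183-x begins 1 base later than chi-miR-183 and shares a run of 21 bases with it, which moves its seed by that base, so that it differs from the seed of chi-miR-183 at 6 positions. The leading strands of miR-205 and miR-203, shown next, share no seed with the cluster or with each other.
miR-205-x: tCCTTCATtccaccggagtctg
miR-203-y: tGAAATGTttaggaccactagt
The opposite arms that passed the filter on low counts are shown for comparison with their partners.
miR-182-y: tGGTTCTAgacttgccaact
miR-183-y: tGAATTACcgaagggccataaa
miR-205-y: gATTTCAGtggagtgaagctc

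Library totals ran from 8288492 to 13277448 counts. Levels are counts over the library total on the usual CPM scale, scaled by edgeR's TMM factors and given as mean ± SD over 3 goats. Of the 13 entries, 11 were tested, since the filter on low counts kept 937 entries in all. miR-203-x (15 counts over the 9 libraries) and miR-96-y (2 counts, both in 24-month library 3) were left out by it, and in any library 3 counts are worth 0.226 to 0.362 unscaled CPM. 1 library stood apart: 1-month library 2, whose log2 levels correlated at r = 0.915 and 0.927 with those of its age mates, against 0.969 to 0.987 within all other pairs of the same age. Its miRNAs of leukocytes (miR-142, miR-150, miR-155, miR-223, miR-146 and miR-342) took 12.7% of the counts, against 3.73% and 5.78% in the other 1-month libraries and 0.477% to 0.712% in the 6 later libraries. The most abundant of them, miR-142-x, alone stood at 103086 CPM in this library and so made up most of that share. The neural list of this library (miR-9, miR-124, miR-128, miR-129, miR-137 and miR-219) took 3.48%, against 0.419% to 0.723% and 0.0290% to 0.0564%. The most abundant entry of that list, chi-miR-128-3p, alone stood at 30473 CPM in this library, so the share speaks mainly for that entry. Its other epithelial miRNAs (miR-200, miR-141 and miR-429) took 0.366%, against 3.23% and 4.66% at 1 month and 9.17% to 10.6% later. The low shares were not limited to epithelial miRNAs. Its mesenchymal and smooth muscle list, led by chi-miR-143-3p, took 1.66%, against 10.7% and 13.6% at 1 month and 6.51% to 9.04% later. Its endothelial list (miR-126) took 0.441%, against 1.01% and 1.45%, then 0.693% to 0.939%. Its gland secretory list (miR-148, miR-375, miR-7, miR-216 and miR-217) took 1.41%, against 6.50% and 8.55%, then 14.2% to 17.9%. The leading entries of that list differed. chi-miR-148a-3p was low there, at 4430 CPM against a 1-month mean of 35621 CPM. miR-375-y was not, at 8352 CPM against a 1-month mean of 8371 ± 224 CPM. All 22 leukocyte entries had counts in at least 1 library, and 8 of them were at 0 in at least 1. Of the 16 leukocyte entries tested, 12 fell by 12 months and 14 by 24 months against 1 month, where 13.2% and 17.5% of all entries tested fell. The cluster was lowest and miR-203-y highest in this library, miR-205-x was neither, and the part of these shares in the results was not tested. Results are given with and without 1-month library 2.

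The epithelial miRNAs differed widely in abundance. miR-205-x was the most abundant entry of the 13 and ranked 36 of 2189 by mean unscaled CPM over the 9 libraries, followed by chi-miR-183 (69), chi-miR-182 (83), miR-182-x (89) and chi-miR-96 (91). miR-203-y ranked 315. The lowest miR-205-x value of any library, 3182 CPM, lay above the highest chi-miR-183 value, 2696 CPM. At 24 months chi-miR-183 (2159 ± 232 CPM), chi-miR-182 (1857 ± 304), chi-miR-96 (1801 ± 528) and miR-182-x (1653 ± 134) overlapped with their neighbours in that order. The strands are 20 to 24 bases long, so these levels need no length correction. How well each sequence is captured and amplified in a library was not tested.

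**Figure D1:**
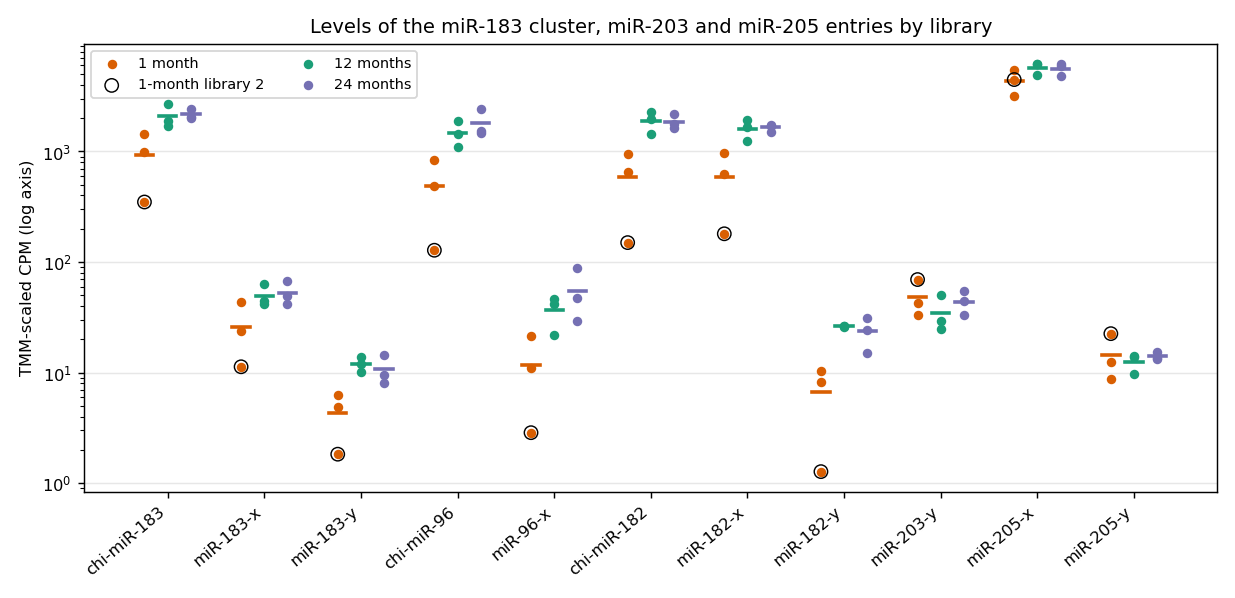
TMM-scaled CPM on a log axis for the 11 entries tested, 1 point per library and a bar at the mean of each age, with 1-month library 2 ringed. The cluster entries other than miR-183-x sit lower at 1 month than at the later ages, with the ringed library lowest, while miR-183-x, miR-205 and miR-203 overlap between ages.

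The cluster's share of the counts was lower in each 1-month library than in any later one, while of its 8 tested entries 3 passed the test for 24 months against 1 month and 0 for 12 months. Its 9 entries together took 0.308% ± 0.215 of the counts at 1 month, 0.695% ± 0.128 at 12 months and 0.709% ± 0.0338 at 24 months (n = 3 each). By library the share was 0.505%, 0.0780% and 0.341% at 1 month. It was 0.834%, 0.670% and 0.581% in the 12-month goats, and 0.724%, 0.732% and 0.670% in the 24-month goats. The later ages overlapped, and the summed share was not tested. In whole tissue, fewer epithelial cells and less of the miRNA per cell cannot be told apart.

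chi-miR-182, whose strand is the most abundant of the cluster when its longer form is added, stood at 954, 149.9 and 658 CPM in 1-month libraries 1, 2 and 3. It stood at 2273, 1432 and 1956 CPM at 12 months and at 2199, 1618 and 1754 CPM at 24 months. No 1-month value reached any later one. Against 1 month the log2 fold change was 1.68 (SE 0.55, adjusted p = 0.0550, edgeR's quasi-likelihood test with Benjamini-Hochberg adjustment over 937 entries) at 12 months, short of the threshold of 0.05, and 1.66 (SE 0.55, adjusted p = 0.0470, same test) at 24 months. chi-miR-182 thus passed as higher at 24 months than at 1 month, but only narrowly. Summed with its longer form miR-182-x, the strand had a log2 fold change of 1.44 (SE 0.54, adjusted p = 0.0763, edgeR) at 24 months, short of the threshold. With library size alone as the scaling, chi-miR-182 itself had an adjusted p of 0.113 (edgeR). The call also depended on single libraries, as given below.

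chi-miR-96 stood at 834, 128 and 489 CPM at 1 month, at 1871, 1444 and 1108 CPM at 12 months and at 2409.6 CPM in 24-month library 3, with 1473 and 1520.1 CPM in the other 24-month libraries. In mice and humans, changes in its seed cause hearing loss. All later values exceeded all 1-month values. The log2 fold change was 1.61 (SE 0.57, adjusted p = 0.0629, edgeR) for 12 months and 1.90 (SE 0.57, adjusted p = 0.0348, edgeR) for 24 months, both against 1 month. Its longer form miR-96-x stood at 21.5, 2.86 and 11.0 CPM at 1 month, at 41.6, 46.7 and 21.8 CPM at 12 months and at 29.5, 87.6 and 47.4 CPM at 24 months. The highest 1-month value and the lowest 12-month value, 21.5 and 21.8 CPM, lay side by side. It passed as higher at 24 months with a log2 fold change against 1 month of 2.21 (SE 0.69, adjusted p = 0.0380, edgeR). Summed, the 2 forms had 1.77 (SE 0.60, adjusted p = 0.0529, edgeR) at 24 months, short of the threshold.

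chi-miR-183 stood at 1443, 349 and 982 CPM at 1 month, 2696, 1696 and 1896 CPM at 12 months and 2011, 2040.1 and 2427 CPM at 24 months. It too did not overlap between 1 month and either later age. Its log2 fold changes of 1.18 (SE 0.47, adjusted p = 0.0866, edgeR) and 1.22 (SE 0.47, adjusted p = 0.0684, edgeR) did not pass the threshold. miR-182-x, the longer form of chi-miR-182, stood at 962, 180.1 and 628 CPM at 1 month. It stood at 1914, 1667 and 1231 CPM at 12 months and at 1752, 1501 and 1706 CPM at 24 months. Its log2 fold changes of 1.44 (SE 0.51, adjusted p = 0.0629, edgeR) and 1.49 (SE 0.51, adjusted p = 0.0510, edgeR) did not pass either. miR-183-x, the form with the shifted seed, had 43.1, 11.3 and 23.9 CPM at 1 month, 63.2, 44.1 and 41.4 CPM at 12 months and 41.9, 49.2 and 67.0 CPM at 24 months. It was the only tested cluster entry whose ages overlapped in both comparisons with 1 month, with log2 fold changes of 0.92 (SE 0.49, adjusted p = 0.181, edgeR) and 1.01 (SE 0.49, adjusted p = 0.136, edgeR).

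Over the 11 tested entries, none passed the threshold in either direction for 12 months against 1 month, a comparison in which 19.2% of all 937 tested entries passed and 5.98% passed as higher. At an unadjusted p under 0.05 there were 7 of the 11, all of the cluster and all higher, against 39.9% of all tested entries in either direction. DESeq2 called 5 of the 11, all higher, where it called 12.3% of all tested entries higher, and limma voom called 5, all higher, where it called 10.5% higher. For 24 months against 1 month, 3 of the 11 rose (chi-miR-182, chi-miR-96 and miR-96-x) and none fell, where 8.75% of all tested entries rose and 26.3% changed in either direction. At an unadjusted p under 0.05 there were again 7, against 42.6% of all tested entries, and DESeq2 called 7 and limma voom 6, all higher, where they called 16.3% and 12.5% of all tested entries higher. As miR-96-x is a form of chi-miR-96, these calls concern 2 miRNAs. 7 of the 8 tested cluster entries did not overlap between ages and were higher at 12 months than at 1 month, and the same number at 24 months. Over all tested entries this held for 26.3% and 21.3%. The 7 entries are forms and arms of miR-183, miR-96 and miR-182 alone, so they are not independent of one another. None of the 11 was called in the test of any difference between the 3 ages, which called 20.5% of all tested entries. In that test DESeq2 called 6 of the 11 and 31.9% of all tested entries, and limma voom called 5 of the 11 and 19.1%. The 8 cluster entries had a median log2 fold change of 1.54 at 12 months and 1.57 at 24 months, beside -0.02 and -0.06 for all 937.

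**Figure D2:**
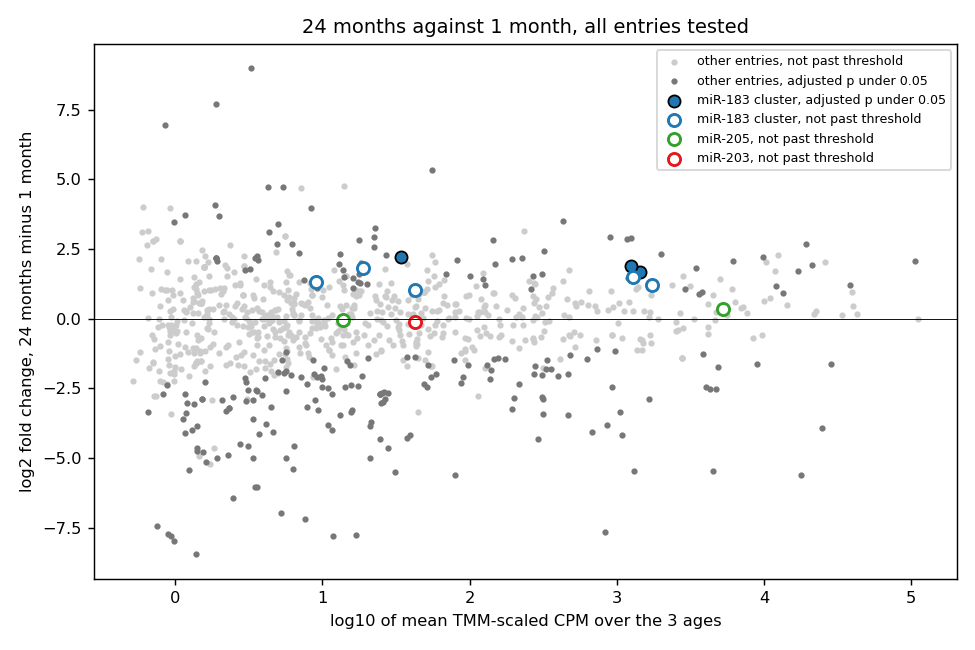
Log2 fold change of 24 months against 1 month for the 937 tested entries, plotted against the log10 of their mean TMM-scaled CPM. The cluster entries (blue) lie between 1.01 and 2.21, with the 3 that passed the threshold filled, while miR-205 (green) and miR-203 (red) lie near 0.

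The calls depended on single libraries. Without 1-month library 2 the cluster's fold changes were smaller but more of them passed. For 12 months against 1 month, 4 entries then passed: chi-miR-182 (log2 1.21, adjusted p = 0.0157, edgeR), chi-miR-96 (1.14, 0.0416), miR-182-x (0.99, 0.0271) and miR-182-y (1.47, 0.0177), where 8.69% of the 967 entries tested in that fit rose. For 24 months against 1 month 5 passed: chi-miR-182 (log2 1.18, adjusted p = 0.0145, edgeR), chi-miR-96 (1.43, 0.0167), miR-96-x (1.73, 0.0428), miR-182-x (1.04, 0.0214) and miR-182-y (1.32, 0.0228), where 11.5% of all tested rose. chi-miR-183 had log2 fold changes of 0.77 (adjusted p = 0.0691, edgeR) and 0.81 (adjusted p = 0.0512, edgeR) in that fit. None of the 3 calls for 24 months against 1 month held without 1-month library 3, without 12-month library 3 or 5, or without any 1 of the 24-month libraries. Without 12-month library 4 the calls of chi-miR-96 and miR-96-x held. Without 1-month library 1, 7 entries passed for 12 months and 7 for 24 months against 1 month, where 6.13% and 8.78% of the 979 entries tested rose.

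Between 12 and 24 months no difference in the members was detected. No tested member was called, with adjusted p = 0.998 for each (edgeR), and none was under an unadjusted p of 0.05. Over all tested entries 0.00% were called and 4.27% were under the unadjusted p. DESeq2 and limma voom called 0 members too. In none of the 11 were these ages apart without overlap, where 9.82% of all tested entries were. The log2 fold changes of the 11 ran from -0.17 for miR-183-y to 0.58 for miR-96-x. The SE of these differences was 0.31 for miR-205-x and 0.66 for miR-96-x. A difference must be well above its SE to pass. Differences of the size of the SE, and clearly larger ones, were therefore not detectable with 3 goats per age.

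Within the cluster, miR-183 took a larger part of the counts at 1 month than later. Over its forms and arms, miR-183 made up 34.9%, 43.9% and 36.0% of the cluster's counts in 1-month libraries 1, 2 and 3, against 27.5% to 31.1% at 12 months and 27.1% to 33.2% at 24 months. miR-182 made up 40.2% to 46.1% at 1 month, then 47.4% to 51.1% in the 12-month libraries and 40.7% to 52.7% at 24 months. It was the largest part in 8 of the 9 libraries, and miR-183 was in 1-month library 2. miR-96 made up 15.9% to 20.0%, 17.9% to 23.4% and 19.9% to 32.2%, its highest part being that of 24-month library 3. The same library held 1.49 counts of chi-miR-96 per count of chi-miR-182, against 0.566 to 1.01 in the other 8. The log2 ratio of chi-miR-183 to chi-miR-182 was lower at 12 months by 0.65 and at 24 months by 0.57 than at 1 month, without overlap between ages (exact two-sided permutation p = 0.1 for each, the smallest that 3 against 3 libraries allow, and 0.2 after adjustment over 30 ratios). For chi-miR-183 over chi-miR-96 the log2 ratio was lower by 0.57 and 0.79, again without overlap and with the same exact p of 0.1. Without 1-month library 2 these differences were -0.44, -0.36, -0.39 and -0.60 in that order, still without overlap. The design cannot take such ratios below a p of 0.05, so none counts as a change.

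**Figure D3:**
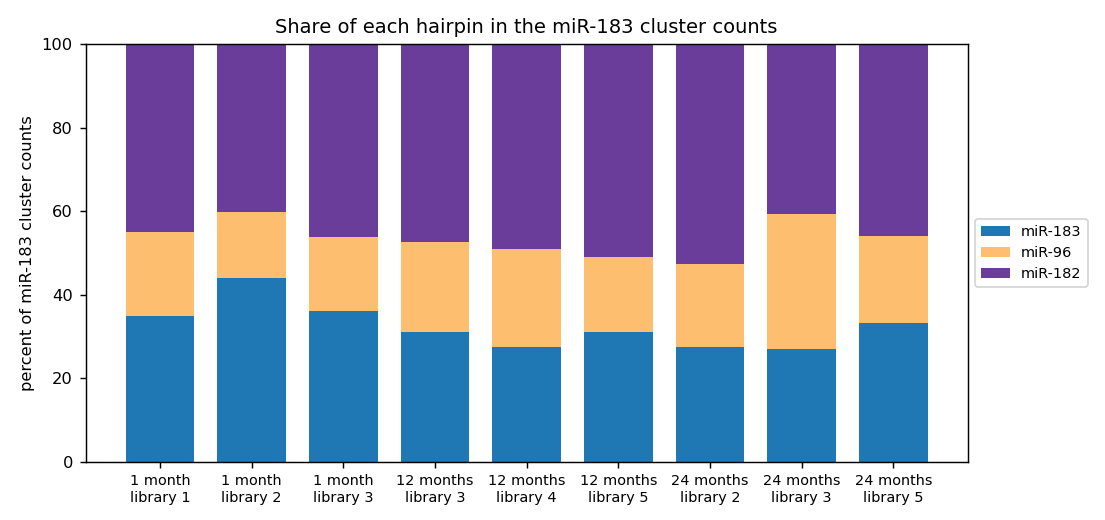
Percent of the cluster's counts from the miR-183, miR-96 and miR-182 hairpins in each library, each bar summing to 100. miR-183 (blue) is widest in the 1-month libraries, at 34.9%, 43.9% and 36.0%, and miR-96 (orange) is widest in 24-month library 3, at 32.2%.

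Each hairpin was represented mostly by 1 arm, and that arm's goat-named or leading form held nearly all of the counts except in miR-182. Over the 9 libraries chi-miR-183 held 97.1% of the miR-183 counts, the shifted form miR-183-x 2.41% and the 3p strand miR-183-y 0.518%. chi-miR-96 held 97.4% of the miR-96 counts and miR-96-x 2.64%. The miR-182 counts were split between chi-miR-182 with 52.7% and miR-182-x with 46.6%, and the longer form's part ran from 38.3% to 54.4% over libraries. miR-205-x held 99.7% of the miR-205 counts and miR-203-y, the 3p strand, 99.6% of the miR-203 counts. How reads were divided between a goat-named entry and its longer form is not given in the sources used here.

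No ratio between entries of a hairpin could pass a test between ages, since 3 against 3 libraries allow no exact p under 0.1. These ratios are therefore given as a description, and in each of them the ages overlapped in every comparison. Over 18 tests of 6 ratios in the 3 comparisons, the smallest exact two-sided permutation p was 0.2 and its adjusted value 0.6. The miR-182-x count per chi-miR-182 count was 1.01, 1.20 and 0.955 at 1 month, then 0.842, 1.16 and 0.629 in the 12-month libraries and 0.797, 0.928 and 0.973 at 24 months. The ratio of miR-183-x to chi-miR-183 was added to this family after the data were seen. Its mean log2 value was -5.12 ± 0.22 at 1 month, then -5.40 ± 0.13 and -5.38 ± 0.20 at the later ages, which overlapped with it.

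The 3p strands of the cluster were scarce and lowest at 1 month. miR-182-y stood at 10.4, 1.27 and 8.26 CPM at 1 month, at 26.6, 25.6 and 26.6 CPM at 12 months and at 24.5, 31.3 and 15.2 CPM at 24 months. Its ages did not overlap with 1 month, and its log2 fold changes of 1.98 (SE 0.64, adjusted p = 0.0511, edgeR) and 1.83 (SE 0.63, adjusted p = 0.0510, edgeR) lay just outside the threshold. miR-183-y stood at 6.30, 1.83 and 4.87 CPM at 1 month, at 10.2, 12.1 and 13.9 CPM at 12 months and at 14.5, 9.55 and 8.06 CPM at 24 months. Its log2 fold changes were 1.47 (SE 0.50, adjusted p = 0.0574, edgeR) and 1.30 (SE 0.49, adjusted p = 0.0684, edgeR). Neither passed. Counting error is large at such levels: the half-width of the Wilson 95% interval, which covers counting error only, reached 50.4% of the miR-182-y value in its lowest library, against 0.748% to 0.996% for miR-205-x.

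miR-205 was abundant at every age, and no difference between ages was detected. miR-205-x stood at 5469, 4467 and 3182 CPM at 1 month, at 4961, 6122 and 6133 CPM at 12 months and at 4809, 6121 and 5934 CPM at 24 months. The ages overlapped, and 1-month library 2 lay between its age mates. The log2 fold change was 0.39 (SE 0.31, adjusted p = 0.362, edgeR) at 12 months and 0.36 (SE 0.31, adjusted p = 0.408, edgeR) at 24 months against 1 month, and without 1-month library 2 it was again 0.39 and 0.36. The 3p strand miR-205-y stood at 12.4, 22.5 and 8.68 CPM at 1 month, at 9.66, 14.2 and 13.9 CPM at 12 months and at 13.3, 15.4 and 13.7 CPM at 24 months. Its log2 fold changes were -0.21 (SE 0.42, adjusted p = 0.734, edgeR) and -0.04 (SE 0.42, adjusted p = 0.952, edgeR), which turned to 0.23 and 0.40 without 1-month library 2, where the strand was highest. That library held 198 miR-205-x counts per miR-205-y count, against 362 to 514 in the other 8.

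miR-203 was far scarcer. miR-203-y stood at 32.9, 69.5 and 42.4 CPM at 1 month, at 50.7, 29.0 and 24.7 CPM at 12 months and at 44.0, 33.3 and 54.3 CPM at 24 months. The ages overlapped, and the highest value was that of 1-month library 2, the library in which the cluster was lowest. The log2 fold change was -0.47 (SE 0.43, adjusted p = 0.427, edgeR) at 12 months and -0.14 (SE 0.43, adjusted p = 0.846, edgeR) at 24 months against 1 month. Without 1-month library 2 these were -0.14 and 0.20. The 15 counts of its 5p strand miR-203-x were 0, 6 and 2 in the 1-month libraries, 0 in each 12-month library and 3, 4 and 0 in the 24-month libraries.

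miR-31, taken as a marker of squamous epithelium, was scarcest in 1-month library 2, where its 2 entries took 0.00306% of the counts. They took 0.0270% and 0.0363% in the other 1-month libraries and 0.0447% to 0.0816% later. miR-31-y rose by 24 months with a log2 fold change of 2.34 (SE 0.62, adjusted p = 0.0219, edgeR), and miR-31-x, the abundant strand, had 1.74 (SE 0.65, adjusted p = 0.0635, edgeR).

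The ratio of the cluster to miR-205 is given by library, since no test of it could pass. The libraries held 1.28, 5.42 and 1.13 counts of miR-205-x per count of the cluster at 1 month, against 0.558 to 0.974 at 12 months and 0.637 to 0.790 at 24 months. Every 1-month library had more miR-205-x than cluster counts, and every later library had fewer. The ratios between the leading entries were compared after the data were seen, as 10 pairs in 3 comparisons. The log2 ratio of chi-miR-182 to miR-205-x was higher by 1.61 at 12 months and 1.63 at 24 months than at 1 month, and that of chi-miR-96 to miR-205-x by 1.53 and 1.84. These ages did not overlap (exact two-sided permutation p = 0.1, adjusted 0.2 over 30 ratios, the smallest that was reached). Without 1-month library 2 the differences were 0.77, 0.79, 0.72 and 1.04, with the ages still apart. For chi-miR-183 over miR-205-x the ages overlapped at 12 months (0.96) and were apart at 24 months (1.05, exact p = 0.1), and the differences were 0.33 and 0.43 without that library. Against miR-203-y the differences were 1.85 and 1.54 for chi-miR-183, 2.42 and 2.32 for chi-miR-96 and 2.50 and 2.11 for chi-miR-182, all with ages apart (exact p = 0.1, adjusted 0.2), and 0.65 to 1.40 without 1-month library 2. The ratio of miR-203-y to miR-205-x overlapped between all ages. No pair was apart between 12 and 24 months.

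**Figure D4:**
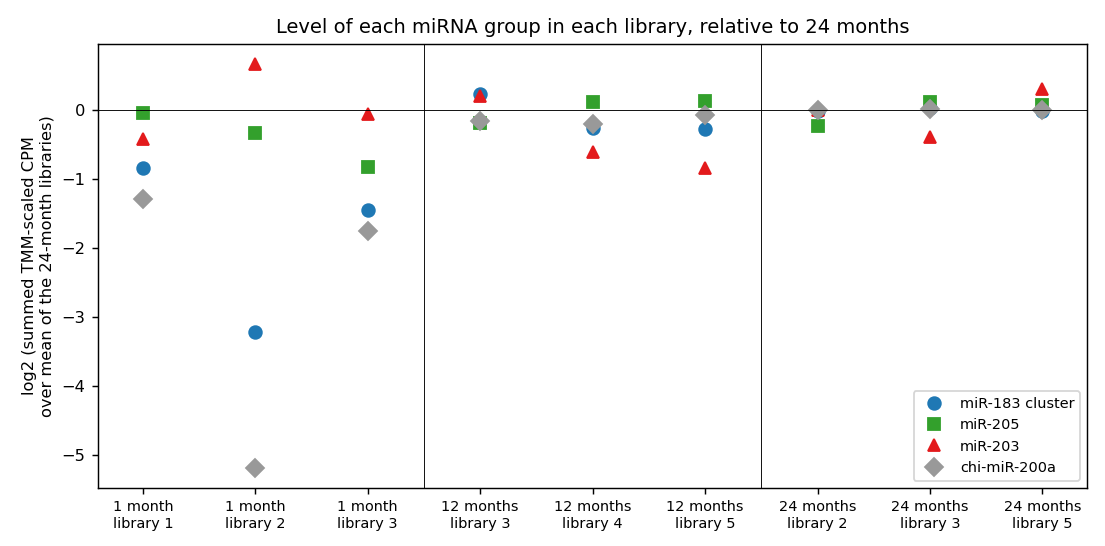
Summed level of the miR-183 cluster, miR-205 and miR-203, and the level of chi-miR-200a, in each library as log2 over the mean of the 24-month libraries. At 1 month the cluster (circles) and chi-miR-200a (diamonds) lie below 0 in all 3 libraries, deepest in library 2, while miR-203 (triangles) is highest in that library.

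The other epithelial miRNAs, the miR-200, miR-141 and miR-429 family that restrains the factors ZEB1 and ZEB2 and so keeps cells epithelial, were also higher after 1 month. Of its 13 entries, 12 were tested. 6 rose by 12 months and 7 by 24 months against 1 month, and none fell, where 5.98% and 8.75% of all tested entries rose. The median log2 fold changes were 2.14 and 2.35. chi-miR-141 had 4328 ± 2537 CPM at 1 month, and rose to means of 25409 ± 1962 and 27953 ± 3392 CPM in the 12-month and 24-month goats (log2 2.55 and 2.69, adjusted p = 0.00497 and 0.00367, edgeR). chi-miR-200a, the most abundant, stood at 14882, 1004 and 10746 CPM at 1 month and between 31622 and 36532 CPM in every later library. Its log2 fold changes of 1.89 (adjusted p = 0.0695, edgeR) and 2.03 (adjusted p = 0.0506, edgeR) did not pass.

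The leading members were also set against chi-miR-200a in the same library. An exact p of 0.1 is the smallest that so few libraries per age allow. It lies above the threshold, so no ratio could pass and the differences are given as a description. For miR-205-x the log2 ratio was lower by 2.17 at 12 months and 2.35 at 24 months, and for miR-203-y by 3.06 and 2.83, with ages apart (exact two-sided permutation p = 0.1 each, adjusted 0.214 over 15 ratios). The libraries held 0.367, 4.45 and 0.296 counts of miR-205-x per count of chi-miR-200a at 1 month, then 0.153 to 0.194 in the 12-month libraries and 0.133 to 0.168 at 24 months. For chi-miR-183 the log2 ratio was lower by 1.22 and 1.29 with ages apart (exact p = 0.1). For chi-miR-96 (0.65 and 0.51 lower) the ages overlapped, and for chi-miR-182 they overlapped at 12 months (0.57 lower) and not at 24 months (0.72 lower, exact p = 0.1). Without 1-month library 2 the differences at 12 and 24 months were -0.92 and -1.10 for miR-205-x, -1.55 and -1.32 for miR-203-y, and -0.59 and -0.67 for chi-miR-183. They were -0.20 and -0.06 for chi-miR-96 and -0.15 and -0.30 for chi-miR-182.

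The entries whose levels ran most like each leading member are given as a description, by Pearson's r of log2(TMM-scaled CPM + 1) over the 9 libraries among 492 entries with a mean of at least 10 CPM at some age. These libraries share their depth scaling, and 1-month library 2 weighs on every value. For chi-miR-182 the 5 nearest were chi-miR-200c (r = 0.992), chi-miR-200b (0.989), miR-200-z (0.987), chi-miR-200a (0.983) and chi-miR-148a-3p (0.983), which is known from the acinar cells of secretory organs. For chi-miR-183 they were miR-429-y (0.986), chi-miR-200b (0.979), chi-miR-500-3p (0.979), miR-200-z (0.977) and chi-miR-200c (0.973). For chi-miR-96 they were miR-200-y (0.976), miR-23-y (0.976), miR-200-z (0.973), miR-429-y (0.968) and chi-miR-200a (0.965). miR-203-y ran most like chi-miR-221-5p (0.916) and miR-222-y (0.894), then chi-miR-222-3p (0.793), miR-3431-x (0.755) and chi-miR-1271-5p (0.735). miR-205-x had no close match over the 9 libraries: miR-210-z (0.816), miR-103-y (0.749), chi-miR-499-3p (0.745), miR-236-y (0.743) and miR-107-y (0.743) came nearest. Over the 8 libraries without 1-month library 2, chi-miR-30c-3p (0.901) and miR-429-y (0.837) came nearest to miR-205-x. Without 1-month library 2, 4 of the 5 names stayed for chi-miR-182, 3 for chi-miR-183, 2 for miR-203-y, and 1 each for chi-miR-96 and miR-205-x. Among the members, chi-miR-183 and chi-miR-182 ran together with r = 0.983 over 9 libraries and 0.923 over the 8 without it, while chi-miR-183 and miR-205-x had r = 0.510 and 0.640.

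Entries outside the cluster carry the same seeds, and the abundant one among them is shown because it bears the seed of miR-96 on an otherwise different strand.
chi-miR-1271-5p: cTTGGCACctagtaagtact
miR-263-x: cTGGCACTggtagaattcactga
chi-miR-1271-5p shares with chi-miR-96 no run longer than 7 bases. It stood at 1355, 4540 and 1172 CPM at 1 month, at 1228, 825 and 977 CPM at 12 months and at 1017, 943 and 1271 CPM at 24 months. Its log2 fold changes against 1 month were -1.22 (SE 0.50, adjusted p = 0.0940, edgeR) and -1.13 (SE 0.50, adjusted p = 0.108, edgeR), neither past the threshold. Per count of chi-miR-96 there were 1.63, 35.5 and 2.40 counts of chi-miR-1271-5p at 1 month, then 0.656, 0.571 and 0.882 in the 12-month libraries and 0.690, 0.391 and 0.836 at 24 months. Every 1-month library thus held more of the seed on chi-miR-1271-5p than on chi-miR-96, and every later library held less. These ratios leave out miR-1271-x, a longer form of chi-miR-1271-5p, with 168 ± 149, 53.4 ± 17.5 and 60.1 ± 14.9 CPM at 1, 12 and 24 months. Its log2 fold changes against 1 month were -1.65 (SE 0.58, adjusted p = 0.0629, edgeR) and -1.48 (SE 0.58, adjusted p = 0.0760, edgeR). miR-507-y also has this seed and had 308 counts over the 9 libraries. miR-263-x differs from miR-183-x by A1C alone and so has its seed. It had 132 counts over the 9 libraries, with mean levels of 0.482, 1.37 and 2.75 CPM at 1, 12 and 24 months, and reads of either entry could have been counted under the other.

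**Figure D5:**
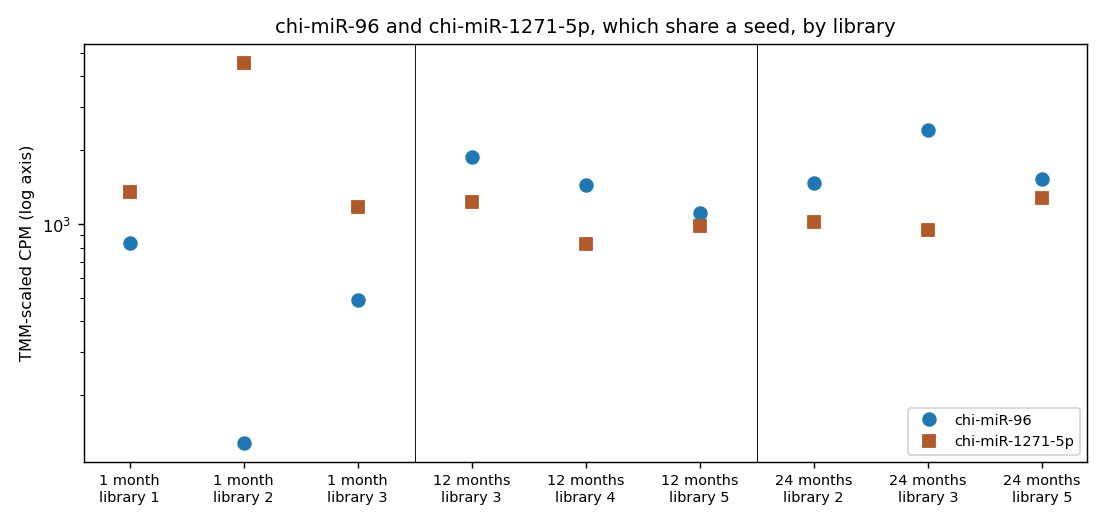
TMM-scaled CPM on a log axis of chi-miR-96 (circles) and chi-miR-1271-5p (squares), which share a seed, in each library. chi-miR-1271-5p lies above chi-miR-96 in the 3 libraries of 1 month, most of all in library 2 (4540 against 128 CPM), and below it in the 6 later libraries.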

How the data were processed

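The authors deposited 1 table of raw counts, with a mature sequence for each of its 2189 miRNA entries, per the file headers. RNA was isolated with TRIzol and made into Illumina miRNA libraries, per the labels' protocols. The submitters' processing notes name FastQC and Bowtie, with no version. Not given in the sources used here are the genome build, the miRNA database release and how reads that match several entries were treated. Some entries are longer or shifted forms of others, so values of close forms are uncertain to that degree.

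Entries were kept by edgeR's filter (minimum count 10, minimum total 15), which left 937. A single edgeR model (edgeR 4.0.16, R 4.3.3) held the 9 libraries, with TMM scaling and the robust quasi-likelihood test on 6 residual degrees of freedom, and its biological coefficient of variation was 0.534. Benjamini-Hochberg adjustment ran over the 937 entries of each comparison, with a threshold of 0.05. Ratios within a library used counts plus 1 and exact two-sided permutation tests over libraries (SciPy 1.17.1). DESeq2 1.42.0 and limma voom 3.58.1, other scalings and filters, a fit on the goat-named entries, a fit on summed forms and leaving out each library were the alternatives. Wilson 95% intervals cover counting error only.

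The labels place the libraries in separate goats, so p-values measure the spread between animals. The same numbers at different ages did not pair libraries. Members with a mean of at least 10 CPM at 1 age were given by library. Others named were the 5 nearest entries of each leading member, the most abundant of the miR-200 family and of the marker lists, and entries sharing a member's seed, which were chosen after their values were seen. The members and lists were chosen with earlier results of these data known.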

Additional observations from a re-analysis of the deposited data

How the results depend on the processing

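Brackets give the number of all entries called higher in the same fit. For 24 months against 1 month 3 of the 11 tested entries were called (82 of 937). Library size alone as the scaling gave 0 (46 of 937), and only the ages compared in the fit 0 (36 of 883). Summing entries that share their first 18 bases gave 0 (52 of 725). DESeq2 size factors gave 5 (99 of 937) and upper quartile scaling 5 (132 of 937). DESeq2 gave 7 (153 of 937) and limma voom 6 (117 of 937). With no filter miR-182-y passed too (65 of 2189). With a minimum count of 50 chi-miR-182 did not pass (53 of 637). Among goat-named entries alone chi-miR-183 passed too (53 of 358). Leaving out 1 library gave 0 to 7, the 7 without 1-month library 1 (86 of 979). For 12 months against 1 month 0 were called (56 of 937). DESeq2 size factors gave 1 (51 of 937), upper quartile scaling 3 (77 of 937) and no filter 3 (57 of 2189). DESeq2 gave 5 (115 of 937), limma voom 5 (98 of 937) and goat-named entries alone 3 (37 of 358). Leaving out 1 library gave 0 to 7, the 7 without 1-month library 1 (60 of 979). For any difference between the ages 0 were called, with all entries called in either direction in brackets (192 of 937). No filter gave 4 (303 of 2189), DESeq2 6 (299 of 937) and limma voom 5 (179 of 937). Goat-named entries gave 3 (109 of 358), and leaving out 1 library gave 0 to 4. For 24 months against 12 months the number of members called was 0 under every alternative run. With no filter 5 of all 2189 entries were called there. The cause of these differences was not tested, except that the fits that leave out libraries or compare only 2 ages hold fewer samples. The cluster's fold changes against 1 month kept their sign in all 153 values that its entries had over the alternatives in each comparison. Other scalings moved their size: library size alone put the median of all tested entries at -0.20 and -0.36 for 12 and 24 months against 1 month, and chi-miR-182 at 1.33 for the latter. Between 12 and 24 months 22 of 153 such values of the cluster turned sign. Against 1 month, 2 of 19 values did for miR-203-y at 24 months, and 2 of 38 and 3 of 38 for miR-205 at 12 and 24 months. No ratio within a hairpin passed under any alternative, but with at most 3 libraries per age the exact test could not have passed.

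Libraries with the same number at different ages came from different goats, and their deviations from the age means correlated between -0.21 and 0.18, so the numbers do not pair them. With a replicate block in the fit, 0 members were called for 12 months against 1 month, where 4 of 937 entries were called in either direction. For 24 months against 12 months 0 members and 0 of 937 entries were called. For 24 months against 1 month 2 members were called (chi-miR-96 and miR-96-x), where 27 of 937 entries were called higher. For any difference 0 members were called, where 13 of 937 entries were. Depth limits the 3p strands and miR-203-x, and 3 goats per age limit the rest.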
